A study of Mus musculus with 40 samples.

Results

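Mitochondrial ribosomal proteins are encoded by nuclear genes whose symbols begin with Mrpl for the large subunit and Mrps for the small subunit. The members described here are the genes whose symbol begins with Mrpl or Mrps and a number, that are not named as pseudogenes, and that had at least 10 counts in at least 3 of the 38 libraries used. Of 78 matching symbols, 77 met this rule, 48 with Mrpl and 29 with Mrps symbols, out of 55487 genes in the table, of which 20817 reach the same count minimum. Fold changes did not enter the rule, and the 77 members passed the low-count filter of the differential test as well. The mitochondrial ribosome is assembled in the matrix from these imported proteins and from rRNAs transcribed from mitochondrial DNA. It translates the mRNAs of mitochondrial DNA, which code for core subunits of the respiratory chain complexes and of ATP synthase. Hepatocytes are rich in mitochondria, and the proteins of their respiratory chain come from both genomes.

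The study sequenced rRNA-depleted total RNA of whole liver from mice with a hepatocyte-specific knockout of Nampt (HNKO), the gene for the enzyme that turns nicotinamide into the NAD precursor nicotinamide mononucleotide, and from WT mice. HNKO mice were Nampt fl/fl and carried Alb-Cre, WT mice were floxed littermates without Cre, and both were females of the C57BL/6JBomTac background. They were 9 weeks old when a purified diet (PD) was begun and were killed after 3, 6, 12, or 21 days of it; the labels give these days as an age, while the methods of the study give them as days of feeding. Each library is 1 mouse, with 5 WT and 5 HNKO at day 3, 4 and 5 at day 6, 5 and 6 at day 12, and 5 and 3 at day 21. HNKO libraries 17 and 18 of day 21 are described as having failed quality control and were left out of the comparisons. Cre is driven by the Alb promoter, and the paper describes the knockout as specific to hepatocytes. How far the other cells of a whole-liver sample keep Nampt cannot be seen in these data. In bulk RNA a smaller number of cells of a type and less RNA per cell cannot be told apart. Total counts ran from 16151037 to 64181492 per library, with a median of 26466478.5. Levels are given as CPM, counts relative to library size, scaled by TMM, which sets library sizes so that most genes do not differ, and a gene is called higher or lower where edgeR's p adjusted over the 20297 tested genes is under 0.05.

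Nampt itself checks the genotype labels. At day 3 its level was 70.8, 80.0, 66.7, 57.4, and 94.7 CPM in WT libraries 1, 24, 25, 26, and 5, and 39.6, 35.3, 40.7, 41.6, and 36.9 CPM in HNKO libraries 2, 22, 23, 3, and 4. At day 6 it was 136, 63.8, 63.7, and 155 CPM in WT libraries 10, 27, 28, and 8, and 44.5, 46.8, 56.1, 51.5, and 82.0 CPM in HNKO libraries 29, 30, 31, 6, and 7. The groups did not overlap at day 3, while at day 6 HNKO library 7 lay above WT libraries 27 and 28. At day 12 the level was 68.9, 69.7, 151, 59.4, and 59.8 CPM in WT libraries 14, 15, 16, 33, and 34 against a lowest, median, and highest of 30.3, 50.8, and 54.5 CPM in 6 HNKO libraries. At day 21 it was 76.6, 91.9, 100.4, 86.7, and 86.3 CPM in WT libraries 19, 20, 21, 39, and 41, and 46.9, 65.1, and 52.9 CPM in HNKO libraries 37, 38, and 40. WT library 16 stood far above its group, WT libraries 8 and 10 lay above WT libraries 27 and 28, and the groups of days 12 and 21 did not overlap. The log2 fold change of HNKO against WT was −0.93 ± 0.23, −0.90 ± 0.24, −0.82 ± 0.22, and −0.69 ± 0.27 (SE) at days 3, 6, 12, and 21, with edgeR adjusted p of 0.0193, 0.0128, 0.0208, and 0.161. The day 3 call ended without WT library 5 (adjusted p 0.056, range over all alternatives 0.00408 to 0.056). The day 6 call ended without WT library 8 (0.106), WT library 10 (0.0683), or HNKO library 29 (0.0639), and with only the 2 groups of that day in the fit (0.0841; range 0.00341 to 0.106). The day 12 call ended without WT library 16, which left a log2 fold change of −0.47 (0.142), without HNKO library 35 (0.0562), and with the 2 groups alone (0.0773; range 0.00801 to 0.142).

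Per length of exon, the members spanned a 27.4-fold range of levels in WT liver. Over the 19 WT libraries the mean level was 30.8 ± 9.51 CPM per kb (SD) for Mrpl12, 27.9 ± 4.75 for Mrpl2, and 25.9 ± 3.44 for Mrpl18, the 3 highest. MRPL12 is a protein of the stalk on which translation factors bind the large subunit. The 3 lowest were Mrpl19 at 1.96, Mrps25 at 1.503, and Mrpl23 at 1.12 CPM per kb. The median member had 7.83 CPM per kb against 1.75 over the 20287 tested genes with a length, and 75 of the 77 members lay above that median. Mrps36 was the member with the fewest counts, 40 to 141 per library with a median of 91.5, and the matching symbol left out, Mrpl53, had 0 to 4 counts. Mrpl53 shares 88.0% of its exon bases with a gene on the same strand, Gm42688, and reads that overlap 2 genes are not assigned to either by the submitters' counting tool unless asked. The 5 genes named as pseudogenes that share these symbols were Mrps36-ps1, Mrps36-ps2, Mrps36-ps3, Mrpl23-ps1, and Mrpl48-ps.

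Sequence shared with other genes limits how well some members were counted. Of the 51-base stretches in the exons of a member, 71.7% in Mrps34, 68.2% in Mrps25, 36.9% in Mrpl19, and 31.3% in Mrpl43 also occurred in another gene, which for these 4 is mainly a neighbor whose annotated exons overlap theirs. For the members called below, the share was 15.05% in Mrps27, 8.65% in Mrpl12, 8.63% in Mrps21, 2.92% in Mrpl3, 0.899% in Mrps17, 0.559% in Mrpl15, 0.309% in Mrps35, 0.0471% in Mrpl1, and 0% in Mrps9. In all, 32 members had a share above 5% and 25 had a share of 0. Mrps27 lies across from 6430562O15Rik on the opposite strand, which covers 24.2% of its exon bases, and Gm16755 likewise covers 13.05% of those of Mrpl12. Whether the counting kept the strands apart is not stated. If it did not, reads of the shared stretches would by default be assigned to neither gene, so both levels may lack them.

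Liver of HNKO mice held lower levels of the members in sum than liver of WT mice after TMM scaling, by 6.49%, 14.8%, 9.63%, and 6.73% of the WT mean at days 3, 6, 12, and 21, whereas scaling by total counts alone turned the sign at days 3, 12, and 21 (4.99%, −1.71%, 3.32%, and 7.36% for HNKO minus WT). The summed level was 1763 ± 116 CPM in WT and 1648 ± 131 in HNKO (SD) at day 3, and 1872 ± 124 and 1595 ± 113 at day 6. It was 1671 ± 68.2 and 1510 ± 59.3 at day 12, and 1566 ± 48.3 and 1460 ± 121 at day 21. With TMM, every HNKO library lay below every WT library at days 6 (5 of 5) and 12 (6 of 6), and 2 of 5 and 2 of 3 did so at days 3 and 21. At day 12 it was 5 of 6 with RLE scaling, and 5 of 6 for the Mrpl symbols alone. With total counts alone, 1 of 5 HNKO libraries lay below every WT library at day 6, and 0 did at days 3, 12, and 21. HNKO libraries 23, 29, 35, and 37 had the lowest sums of their groups, 1486, 1413, 1412, and 1328 CPM. Libraries 23, 29, and 37 also had the lowest hepatocyte marker sums of their groups (67067, 56400.2, and 76241 CPM) and the highest leukocyte marker sums (88.6, 147, and 82.8 CPM) and stellate marker sums (539, 508, and 550.4 CPM). Cholangiocyte markers summed to 386, 764, and 495 CPM in them, the highest of the group in 29 and 37, while library 35 did not stand apart in these 4 lists. The 2 other marker lists did not follow this pattern. Macrophage markers summed to 291, 428, and 248 CPM in libraries 23, 29, and 37, the highest of the group in 29 alone, level with library 6. Endothelial markers summed to 472, 521, and 474 CPM, the highest of the group in none of them and the lowest in 23. No p is given for the summed level of the members, since they were chosen as a family.

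**Figure D1:**
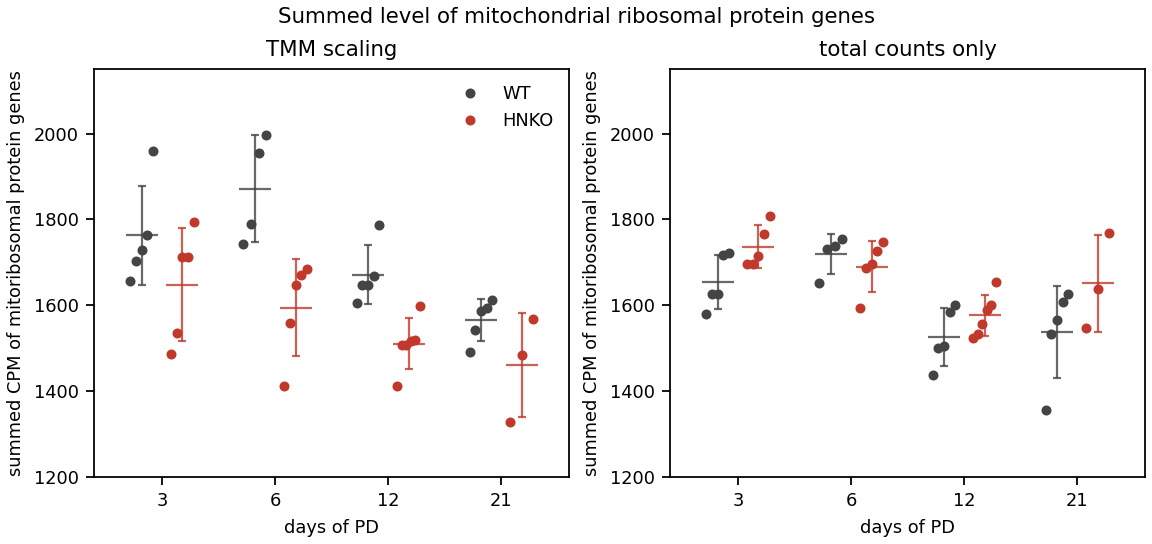
Summed CPM of the 77 mitochondrial ribosomal protein genes in each library (points, WT grey and HNKO red) by days of PD, with the mean and SD of each group as bars, under TMM scaling at left and total counts alone at right; the vertical axes start at 1200 CPM. With TMM the HNKO points lie below all WT points at days 6 and 12. With total counts alone 1 of 5 and 0 of 6 do so, and the HNKO mean is above the WT mean at days 3, 12, and 21.

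The difference between the scalings is one of the whole library. Without TMM the median log2 fold change of all tested genes was 0.18, 0.20, 0.19, and 0.19 at the 4 days, in place of 0.01, −0.01, 0.00, and −0.01. A fixed set of 10 genes, those with the highest mean share of counts over the 38 libraries, was summed in each library. Alb and mt-Rnr2 are the first 2 of the set. It took a mean of 21.7%, 22.7%, 23.3%, and 21.5% of counts in WT and 20.04%, 18.6%, 20.7%, and 17.9% in HNKO. Over all tested genes, TMM gave 347 lower and 598 higher calls at day 3, 887 and 1709 at day 6, 663 and 925 at day 12, and 186 and 448 at day 21. Total counts alone gave 135 and 1657, 223 and 2948, 150 and 2124, and 56 and 1156. Such a change of scaling shifts all genes by nearly the same amount, so values relative to the all-gene median hardly depend on it by construction. The median of the members minus that of all genes was −0.09, −0.19, −0.13, and −0.06 with TMM and −0.09, −0.20, −0.13, and −0.06 with total counts. Members below the all-gene median numbered 65, 75, 66, and 50 of 77 with TMM, and 65, 75, 66, and 51 with total counts. Over all alternatives this relative median ran from −0.12 to −0.06 at day 3, from −0.22 to −0.15 at day 6, and from −0.15 to −0.09 at day 12. At day 21 it ran from −0.11 to 0.00, the last without HNKO library 37.

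Day 3 was the earliest day sampled. The knockout preceded the diet and no group was sampled before it, so a difference at day 3 cannot be dated to the diet. The paper considers it likely that fibrosis preceded the diet. With TMM, 63 of 77 members had a negative log2 fold change against 48.1% of all tested genes, with a median of −0.08 and a range of −0.35 to 0.19; total counts alone left 18 negative. None was called by edgeR, where 4.66% of tested genes were called, 1.71% lower and 2.95% higher. At an unadjusted p under 0.05, 10 members were lower (9.35% of all genes) and 0 higher (2338 of all 20297 genes), and DESeq2 called 0 in either direction (614 and 814 of all genes lower and higher). The lowest adjusted p was that of Mrpl9, a large subunit protein. Its level was 34.2, 44.7, 39.3, 36.1, and 37.1 CPM in WT libraries 1, 24, 25, 26, and 5, and 29.4, 33.6, 32.2, 28.5, and 32.5 CPM in HNKO libraries 2, 22, 23, 3, and 4. All 5 HNKO libraries lay below all WT libraries, with HNKO library 22 and WT library 1 nearest to each other. Mrpl9 was the 1 member without overlap on the lower side, where 1.8% of all genes had none, and no member was without overlap on the higher side (2.31%). The log2 fold change was −0.29 ± 0.10 with an adjusted p of 0.0803 (range over alternatives 0.039 to 0.507), and it passed 0.05 without WT library 16 of day 12 (0.039). Mrpl14 had −0.35 (adjusted p 0.106) and was called without HNKO library 22 (−0.48, adjusted p 0.0218). Mrps24 (−0.30, 0.11), Mrpl13 (−0.26, 0.147), and Mrps17 (−0.19, 0.155) followed. The members with a positive sign and the smallest p were Mrps28 (0.16), Mrpl54 (0.19), Mrpl40 (0.10), Mrps18b (0.07), and Mrps22 (0.05), none of them called.

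At day 6, 76 of 77 members had a negative log2 fold change after TMM and 39 after total counts alone, and these counts were not tested between days. The median log2 fold change was −0.21, beside −0.01 for all genes, and the range −0.47 to 0.03. edgeR called 8 members lower, 10.4% of them, where 4.37% of tested genes were called lower, 8.42% higher, and 12.8% in either direction. No member was called higher by edgeR or DESeq2, and 0 were higher at an unadjusted p under 0.05 (3039 of all 20297 genes). The calls were 5 of 29 genes with Mrps symbols and 3 of 48 with Mrpl symbols, with medians of −0.21 and −0.20. At an unadjusted p under 0.05, 24 members were lower (11.7% of all genes), and 7 were without overlap on the lower side (4.68%) and 0 on the higher side (8.08%). DESeq2 called 9 lower (1056 of all genes, and 1861 higher). Library 29 of HNKO bears on this count more than any other, since 1 member is called without it. Without WT library 8, 10, or 27, or HNKO library 30, 3, 4, 5, and 5 are called, and with total counts alone 0. For the fits without 1 library, the counts of all genes called are not given here, so nothing particular to the members is shown by these falls. With only the 2 groups of the day 1 member is called, and 4 are called without the low-count filter or with all 40 libraries. A negative sign was seen in 51.8% of all genes, and the 1 member without it was Mrps11 (0.03).

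Of the small subunit genes, Mrps27, whose protein has pentatricopeptide repeats, had the smallest p. Its level at day 6 was 17.6, 20.6, 20.3, and 18.3 CPM in WT libraries 10, 27, 28, and 8, and 13.6, 13.7, 12.5, 15.2, and 15.2 CPM in HNKO libraries 29, 30, 31, 6, and 7. The highest HNKO library lay below the lowest WT library. Its log2 fold change was −0.45 ± 0.10 (adjusted p 0.00327), and total counts alone was the 1 alternative that ended the call (0.16; range 0.000522 to 0.16). Mrps27 was not lower at days 3 and 12, at −0.01 and −0.04, values whose sign turns with total counts alone (0.16 and 0.14), and had −0.26 (adjusted p 0.199) at day 21. Mrps9 codes for a protein with a bacterial counterpart in the head of the small subunit. Its level was 32.9, 27.8, 27.5, and 35.3 CPM in the WT libraries in the same order, and 22.2, 24.9, 26.3, 23.8, and 23.8 CPM in the HNKO libraries. The groups did not overlap, with HNKO library 31 nearest to the WT libraries. The log2 fold change was −0.35 ± 0.09 (adjusted p 0.0118). The call ended without HNKO library 29 (0.0707) or WT library 8 (0.0751), with total counts alone (0.302), with all 40 libraries (0.0584), and with the 2 groups alone (0.0555; range 0.00506 to 0.302).

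Mrps35 and Mrps21 varied more between WT mice. Mrps35, a small subunit protein that bacteria lack, was at 30.4, 22.7, 26.5, and 32.8 CPM in WT libraries 10, 27, 28, and 8, and at 15.8, 19.8, 21.9, 21.9, and 23.7 CPM in HNKO libraries 29, 30, 31, 6, and 7. HNKO library 7 reached into the WT range, and the other 4 lay below it. The log2 fold change was −0.45 ± 0.12 (adjusted p 0.0118), and the call ended without HNKO library 29 (0.088) or WT library 8 (0.0703), with total counts alone (0.102), and with the 2 groups alone (0.0779; range 0.00588 to 0.102). Mrps21 was at 22.7, 17.4, 15.1, and 26.4 CPM in WT and at 14.4, 14.1, 13.8, 14.5, and 17.98 CPM in HNKO, in the same order. WT libraries 8 and 10 were high, and HNKO library 7 lay inside the WT range. The log2 fold change was −0.45 ± 0.14 (adjusted p 0.0279). The call ended without WT library 8 (0.197), where the log2 fold change was −0.30, without WT library 10 (0.0983), HNKO library 29 (0.103), or HNKO library 30 (0.0758). It also ended with total counts alone (0.235), without the low-count filter (0.0626), with all 40 libraries (0.27), and with the 2 groups alone (0.111; range 0.00894 to 0.27). Mrps17 had no overlap, with 41.6, 39.96, 39.4, and 38.9 CPM in WT and 27.1, 33.6, 35.3, 36.6, and 34.7 CPM in HNKO. HNKO library 29 was far the lowest of its group. HNKO against WT gave a log2 fold change of −0.26 ± 0.08 with an adjusted p of 0.041, the least secure of the small subunit calls. It ended without any 1 of 12 libraries (WT 8, 10, 27, 28; HNKO 7, 29, 30 of day 6; HNKO 23 of day 3; HNKO 35 of day 12; HNKO 37, 38, 40 of day 21), with adjusted p from 0.0543 to 0.257, and log2 fold change of −0.17 without library 29. Of the other settings, total counts alone (0.676), no filter (0.153), a stricter filter (0.0547), all 40 libraries (0.208), and the 2 groups alone (0.126) ended it (range 0.0249 to 0.676).

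The large subunit calls of day 6 were Mrpl15, Mrpl1, and Mrpl3. Mrpl15, whose bacterial counterpart is a core protein of the large subunit, was at 69.1, 59.6, 51.4, and 75.6 CPM in WT libraries 10, 27, 28, and 8, and at 36.6, 45.0, 52.6, 55.7, and 46.7 CPM in HNKO libraries 29, 30, 31, 6, and 7. WT library 28 lay below HNKO libraries 31 and 6, and the other WT libraries lay above the HNKO group. Fitted over all groups, its log2 fold change was −0.43 ± 0.12 (adjusted p 0.0168), and the call ended without WT library 10 (0.0603), WT library 8 (0.0968), or HNKO library 29 (0.11), with total counts alone (0.0886), and with the 2 groups alone (0.0923; range 0.00732 to 0.11). Mrpl1, a protein of the stalk beside the exit site of tRNA, was at 28.02, 32.3, 34.3, and 30.8 CPM in WT and at 22.2, 28.1, 26.98, 24.8, and 24.4 CPM in HNKO. HNKO library 30 lay level with the lowest WT library, and the other 4 lay below. Its log2 fold change was −0.31 ± 0.09 (adjusted p 0.0214). The call ended without WT library 27 (0.0522), WT library 28 (0.0799), or HNKO library 29 (0.114), with total counts alone (0.507), without the filter (0.0754), and with the 2 groups alone (0.0707; range 0.0101 to 0.507). Mrpl3, a large subunit protein with a bacterial counterpart near the site of peptide bond formation, was at 27.8, 26.1, 26.1, and 27.5 CPM in WT and at 20.8, 23.5, 22.9, 23.3, and 21.9 CPM in HNKO. The groups did not overlap and each had a narrow spread. edgeR gave a log2 fold change of −0.26 ± 0.09 with an adjusted p of 0.0447. This call ended without any 1 of 13 libraries (WT 8, 10, 27, 28; HNKO 7, 29, 30, 31 of day 6; HNKO 23 of day 3; HNKO 35 of day 12; HNKO 37, 38, 40 of day 21), with adjusted p from 0.0506 to 0.175. Total counts alone (0.785), no filter (0.147), a stricter filter (0.0679), all 40 libraries (0.126), and the 2 groups alone (0.0595) ended it too (range 0.0263 to 0.785).

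**Figure D2:**
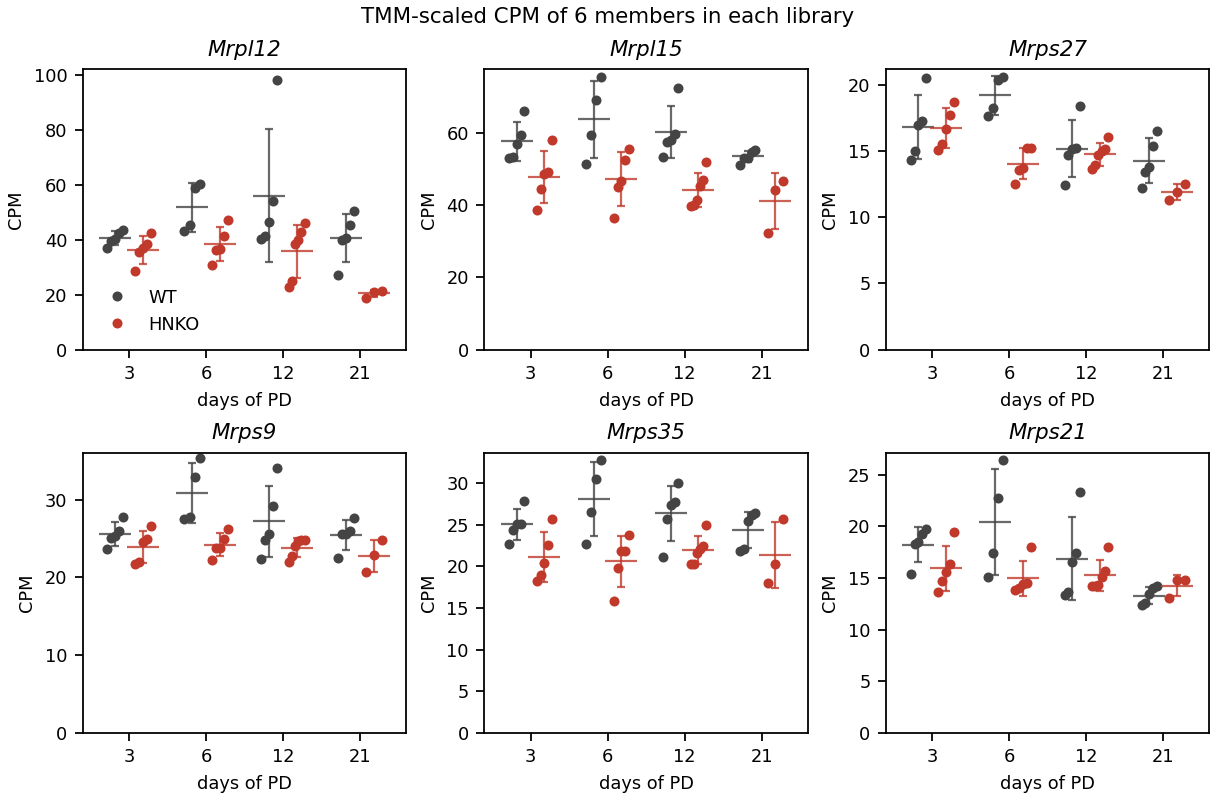
TMM-scaled CPM of Mrpl12, Mrpl15, Mrps27, Mrps9, Mrps35, and Mrps21 in each library (points, WT grey and HNKO red) by days of PD, with the mean and SD of each group as bars. HNKO points lie below all WT points for Mrps27 and Mrps9 at day 6, for Mrpl15 at days 12 and 21, and for Mrpl12 at day 21, and WT library 16 stands at 98.3 CPM for Mrpl12 at day 12.

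At day 12, Mrpl15 and Mrpl12 were called lower by edgeR, 2 of 77 members (2.60%), where 3.27% of tested genes were called lower, 4.56% higher, and 7.82% in either direction. With TMM, 65 members were negative (49.7% of all genes) with a median of −0.13 and a range of −0.64 to 0.21, and with total counts alone 22 were negative. At an unadjusted p under 0.05, 17 were lower (11.3% of all genes) and 0 higher (2668 of all 20297 genes), and DESeq2 called 4 lower and 0 higher (868 and 1185 of all genes). Mrpl15 was the 1 member without overlap on the lower side (2.14% of all genes), and 0 were without overlap on the higher side (2.65%). Its level was 57.5, 59.8, 72.5, 53.5, and 58.2 CPM in WT libraries 14, 15, 16, 33, and 34, and 39.7, 43.5, and 52.1 CPM at the lowest, median, and highest of 6 HNKO libraries. All HNKO libraries lay below the lowest WT library, by a small margin for the highest of them. In HNKO its log2 fold change was −0.44 ± 0.11 (adjusted p 0.0131), and the call ended without WT library 16 (0.0534) and with total counts alone (0.0503; range 0.00516 to 0.0534). Mrpl12 was at 54.1, 40.4, 98.3, 41.5, and 46.4 CPM in WT libraries 14, 15, 16, 33, and 34, and at 22.8, 39.4, and 46.1 CPM at the lowest, median, and highest of the HNKO libraries. WT library 16 lay far above the rest, and the groups overlapped. HNKO against WT gave a log2 fold change of −0.64 ± 0.19 (adjusted p 0.0293). It was −0.34 without WT library 16 (0.198), and the call ended without HNKO library 35 (0.0806) or 36 (0.0632), with total counts alone (0.0827), and with the 2 groups alone (0.163; range 0.0125 to 0.198). Without WT library 16 no member was called at day 12, and without HNKO library 35, 1 was. The counts of all genes called without these libraries are not given here. With the label series as a covariate 4 members were called lower, as with DESeq2. Both sets held Mrpl15, Mrpl12, and Mrpl1, with Mrps5 in the first and Mrps30 in the second. Positive values with the smallest p were those of Mrpl36 (0.21), Mrps6 (0.20), Mrpl17 (0.11), Mrpl54 (0.13), and Mrps16 (0.07), with none called.

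At day 21, with 3 HNKO libraries, Mrpl12 was the 1 member called lower by edgeR (1.30% of members), where 0.916% of tested genes were called lower, 2.21% higher, and 3.12% in either direction. With TMM, 54 members were negative (51.7% of all genes) with a median of −0.07 and a range of −0.99 to 0.24. With total counts alone 13 were negative and 2, Mrpl20 and Mrpl57, were called higher (adjusted p 0.0127 and 0.0183). That is a smaller share than of all tested genes, whose higher calls with that scaling are given above. At an unadjusted p under 0.05, 9 were lower (7.63% of all genes) and 1 higher (2107 of all 20297 genes), and DESeq2 called 2 lower and 0 higher (322 and 672 of all genes). Mrpl12 was at 45.5, 50.4, 39.95, 27.1, and 40.6 CPM in WT libraries 19, 20, 21, 39, and 41, and at 18.99, 21.5, and 20.9 CPM in HNKO libraries 37, 38, and 40. WT library 39 was the lowest WT library and still lay above the HNKO libraries. Fitted over all groups, its log2 fold change was −0.99 ± 0.23 (adjusted p 0.0171), and the call held under each of the 10 other settings but ended without HNKO library 37 (−0.92, adjusted p 0.269; range 0.0032 to 0.269). At days 3 and 6 it was −0.16 (adjusted p 0.697; 0.01 with total counts alone) and −0.43 (0.173). Mrpl15 had 53.1, 55.5, 51.3, 53.3, and 54.7 CPM in the WT libraries and 32.3, 44.2, and 46.9 CPM in the HNKO libraries, again with no overlap. Its log2 fold change was −0.38 ± 0.14, with an adjusted p of 0.11, and it was −0.27 (0.165) at day 3. Library 37 weighs on the whole day, since without it the median over the members was 0.01, 36 were negative, 0 were called, and 13 of all genes were called in place of 634. Without WT library 39, 3 members were called (Mrpl12, Mrps30, and Mrps10), and without HNKO library 3 of day 3, 2 were (Mrpl12 and Mrps30). The counts of all genes called in these fits are not given here. With all 40 libraries, the failed ones included, Mrpl15 (adjusted p 0.0326) and Mrps30 (0.0126) were among the members called. With the label series as a covariate, 2 members were called.

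In all, 5 members were without overlap on the lower side at day 21 (6.7% of all genes) and 2 on the higher side (7.25% of all genes). On the higher side these were Mrpl20 and Mrpl36. Mrpl20 was at 18.9, 19.9, 20.5, 19.3, and 19.6 CPM in WT libraries 19, 20, 21, 39, and 41, and at 21.3, 21.7, and 25.5 CPM in HNKO libraries 37, 38, and 40. HNKO library 40 stood above the other 2, and the log2 fold change was 0.22 ± 0.10 (adjusted p 0.243). Mrpl36 ran from 10.4 to 15.1 CPM in WT and from 15.3 to 16.3 CPM in HNKO, and its log2 fold change was 0.19 (adjusted p 0.675). Mrpl37 and Mrps10 had the next smallest p on the lower side after Mrps30, with −0.30 (adjusted p 0.0722, no overlap) and −0.36 (0.0854). None of these 4 was called with TMM over the 38 libraries. Mrpl57 (0.19), Mrpl23 (0.24), Mrps28 (0.19), and Mrps11 (0.16), which follow Mrpl20 by p on the higher side, were not called either. Without WT library 39, Mrps10 was called (adjusted p 0.049).

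Some members have roles or places that their symbols do not show. Mrps30 and Mrps18a code for large subunit proteins despite their symbols, and Mrps30 came near the threshold on several days. At day 6 Mrps30 was at 17.8, 18.1, 19.5, and 18.6 CPM in WT libraries 10, 27, 28, and 8, and at 15.3, 17.2, 16.3, 15.9, and 15.8 CPM in HNKO libraries 29, 30, 31, 6, and 7. At day 21 it was at 18.3, 16.1, 18.4, 15.7, and 17.5 CPM in WT libraries 19, 20, 21, 39, and 41, and at 12.8, 15.4, and 14.4 CPM in HNKO libraries 37, 38, and 40. The groups did not overlap on either day. Its log2 fold change was −0.09, −0.20, −0.20, and −0.28 at the 4 days, with edgeR adjusted p of 0.516, 0.0711, 0.0632, and 0.0566, and DESeq2 gave 0.0484, 0.0426, and 0.029 from day 6 on. Over the alternatives these ran from 0.0484 to 0.978 at day 6, from 0.0343 to 0.959 at day 12, and from 0.0126 to 0.704 at day 21, and with total counts alone the sign turned at days 3 and 6 (0.08 and 0.01). Mrps18a had −0.08, −0.17, −0.13, and −0.14, and Mrpl58, whose protein frees peptides from stalled ribosomes, had −0.05, −0.14, −0.07, and −0.07. Groups overlapped at each day for both genes. Mrps36 is known as a subunit of the oxoglutarate dehydrogenase complex in spite of its symbol, and its log2 fold changes of −0.03, −0.40, −0.36, and −0.36 were uncalled with overlapping groups. It had the largest spread among the mice of a group, an SD of 0.556 log2 units in WT at day 6. Mrps5 had some of the largest differences, −0.19, −0.47, −0.43, and −0.44, with edgeR adjusted p of 0.564, 0.0821, 0.0956, and 0.24. Its level at day 6 ran from 28.9 to 49.1 CPM in WT and from 19.8 to 37.1 CPM in HNKO.

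**Figure D3:**
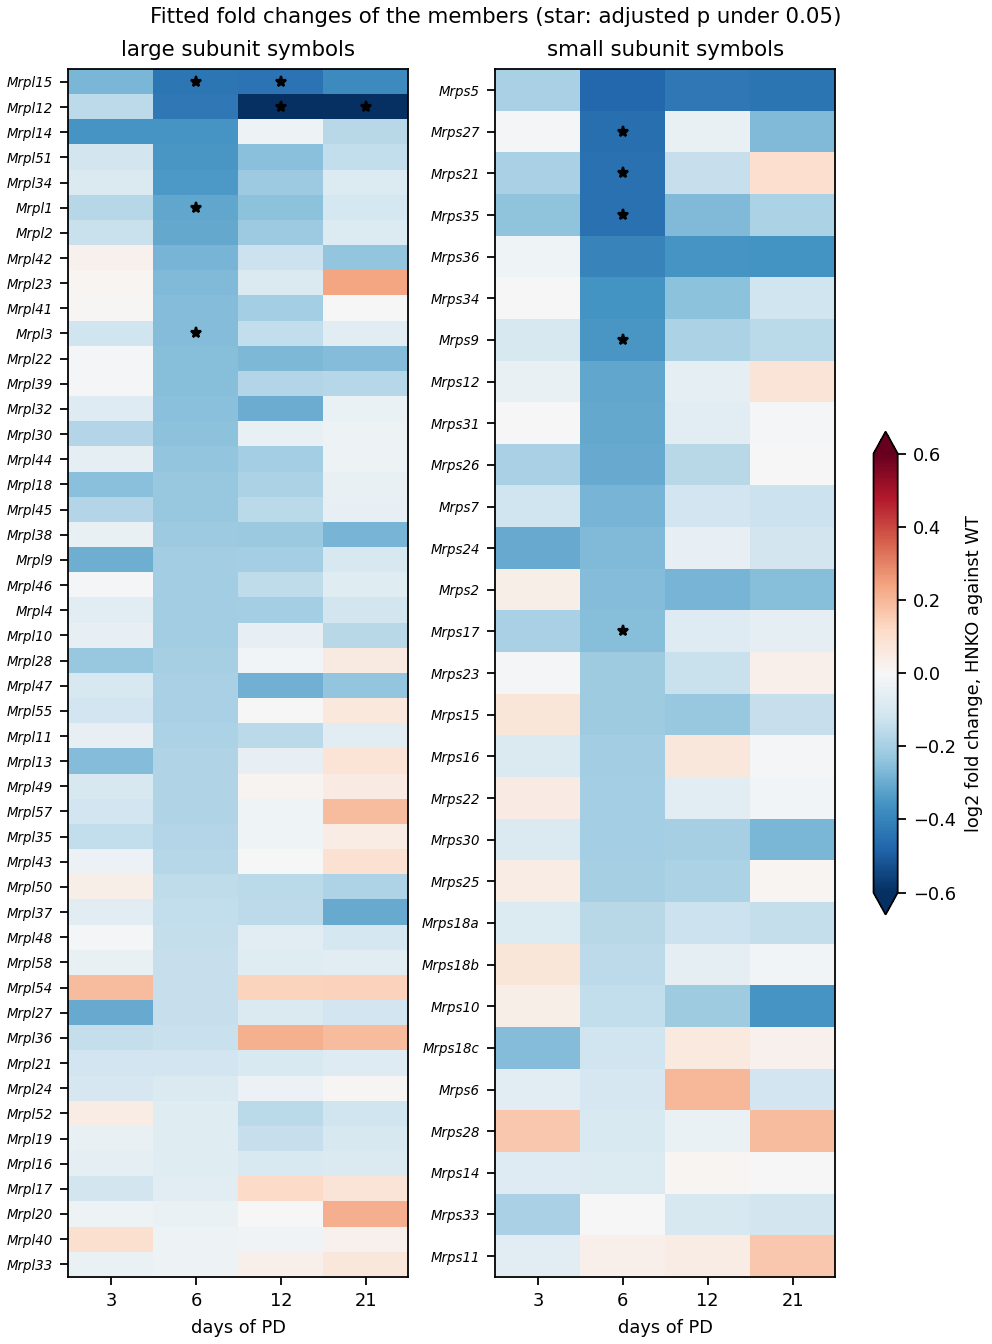
Fitted log2 fold change of HNKO against WT (color, blue for lower in HNKO, limited at 0.6 in either direction) of each of the 48 Mrpl genes (left) and 29 Mrps genes (right) at days 3, 6, 12, and 21, ordered by the value at day 6, with a star where edgeR's adjusted p is under 0.05. With the TMM scaling shown, 76 of 77 members are negative at day 6 and 8 have a star, while with total counts alone 39 are negative and 0 are called.

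The members were also split by symbol number, as a stand-in for having a counterpart in bacteria, after the values had been seen, and the difference was not tested. Counterparts were not checked protein by protein, so some members may be in the wrong set. At day 3 the 45 members whose numbers follow the bacterial proteins had a median of −0.10 with 40 negative, and the 32 others had −0.02 with 23 negative. At day 6 the medians were −0.21 with 6 called and −0.20 with 2 called. At days 12 and 21 they were −0.09 and −0.16, and −0.08 and −0.07. These are values with TMM, and the split was not repeated with total counts alone, which bring the median of the family to 0.09, −0.00, 0.07, and 0.13.

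The library numbers in the labels run through the days in 2 series, 1 to 21 and 22 to 41, and each day but 21 has both genotypes in each series. The median difference of the members in mean log2 CPM was −0.08 and −0.10 in the first and second series at day 3, −0.18 and −0.20 at day 6, and −0.12 and −0.09 at day 12, with TMM. Negative members numbered 64 and 63, 74 and 70, and 64 and 56 of 77. At day 21 the HNKO libraries that passed belong to the second series alone, where the median was −0.03 and 47 were negative. The called genes were lower in HNKO in each series that holds both genotypes, with sizes that differed between series. At day 6 Mrps27 had −0.24 and −0.62, Mrps9 −0.52 and −0.18, Mrps35 −0.47 and −0.37, and Mrps21 −0.60 and −0.20. Mrpl15 had −0.50 and −0.32, and Mrpl1 −0.26 and −0.38. At day 12 Mrpl12 had −0.50 and −0.63 and Mrpl15 −0.50 and −0.35, and at day 21 Mrpl12 had −0.70 in the second series.

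Whether the genotype effect differed between days was tested for each gene as an interaction. No member and no gene of all tested passed edgeR's adjusted p (0% of tested genes). At an unadjusted p under 0.05 there was 1 member, Mrps27 (p 0.0105, edgeR adjusted p 0.941), beside 4.76% of all genes, and DESeq2 was not run for this test. Mrpl12 and Mrps21 came next. So the calls at day 6 and their absence at day 3 are not shown to differ.

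Changes with days on the diet were tested within each genotype. No group was sampled before the diet or on another diet, so days of diet and age cannot be told apart. Over the 4 days, 7 members differed within WT (9.09%, against 5.84% of tested genes) and 5 within HNKO (6.49%, against 7.9%). From day 3 to day 21, 6 members fell in WT, where 1.67% of tested genes did. They were Mrpl34 (log2 fold change −0.56), Mrps12 (−0.52), Mrps21 (−0.46), Mrpl4 (−0.40), Mrpl55 (−0.40), and Mrpl57 (−0.33). In HNKO 6 fell as well, where 1.25% of tested genes did: Mrpl12 (−0.83), Mrpl42 (−0.64), Mrpl38 (−0.49), Mrps27 (−0.49), Mrps10 (−0.47), and Mrpl4 (−0.45). Mrpl4, a large subunit protein, is in both sets. No member was called higher from day 3 to day 21 in either genotype, and the share of all genes called higher is not given here. With TMM, 12 of 77 members in WT were negative at day 6 against day 3 (median 0.09; 49.4% of all genes negative) and 60 at day 12 (median −0.08; 50.1% of all genes). In HNKO 56 and 72 were negative at these days (medians −0.04 and −0.14; 51.4% and 53.1% of all genes). At day 12 against day 3, 1 member was called lower in WT. No other member was called at day 6 or 12 against day 3, and the shares of all genes called are not given here. From day 3 to day 21, Mrps34 had −0.55 in WT without a call, and the largest values in WT were those of Mrps14 (0.12), Mrpl33 (0.12), and Mrpl47 (0.06). The medians over the members were −0.20 in WT and −0.16 in HNKO, and with total counts alone −0.14 and −0.06, where all genes had 0.00 with TMM. At day 21, 69 and 60 of 77 members were negative with TMM. With total counts alone 4 fell in WT and 1 in HNKO, and the shares of all genes with that scaling are not given here. The WT count was 2 without WT library 5 of day 3, and 3 without WT library 21, 39, or 41 of day 21. The HNKO count was 0 without HNKO library 3 of day 3 or 37 or 38 of day 21, and 1 without HNKO library 4 of day 3. It was 3 without HNKO library 2 or 22 or WT library 1 or 25 of day 3, HNKO library 30 of day 6, WT library 34 of day 12, or HNKO library 40 or WT library 41 of day 21.

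Other parts of mitochondrial translation are given beside the members, and the lists were not tested against each other. The mitochondrial translation factors, 18 of 19 tested, had medians of −0.10, −0.22, −0.16, and −0.12 at the 4 days with TMM, which total counts alone turn at days 3, 12, and 21 (0.06, −0.01, 0.03, and 0.08). edgeR called 1, 4, 3, and 0 lower and 0 higher with TMM, and 0, 1, 0, and 0 lower with total counts alone. Gatb, a subunit of the amidotransferase that completes glutamine tRNA in mitochondria, ran from 39.9 to 43.2 CPM in 4 WT libraries at day 6 and from 25.9 to 34.5 CPM in 5 HNKO libraries. HNKO and WT did not overlap, and the log2 fold change was −0.42 ± 0.10 (adjusted p 0.00411), a call that ended with total counts alone (0.152; range 0.00112 to 0.152). Gfm1, an elongation factor for translocation, ran from 90.7 to 102 CPM in WT and from 46.4 to 81.7 CPM in HNKO at day 6, with no overlap. For Gfm1 the log2 fold change was −0.50 ± 0.13 (adjusted p 0.0103), and the call ended without HNKO library 29 (0.0729) and with the 2 groups alone (0.0596; range 0.00378 to 0.0729). Taco1, an activator of mt-Co1 translation, had −0.37 at day 6 (adjusted p 0.0284, range 0.014 to 0.258), lost without WT 8 or 10 or HNKO 29 or 30, with total counts alone, without the filter, with all 40 libraries, and with the 2 groups alone. It had −0.33 at day 12 (0.0396, range 0.0226 to 0.297), lost without any 1 of 15 libraries, with total counts alone, without the filter, and with all 40 libraries. Gfm1 at day 12 had −0.40 (0.0306, range 0.0186 to 0.121), lost without HNKO 11, 12, or 13 or WT 15 or 34, with total counts alone, without the filter, and with all 40 libraries. The count at day 6 was 1 without HNKO library 29 and 2 without HNKO library 30. The call at day 3, Gatb, ended without any 1 of 23 libraries, and the 3 at day 12 fell to 0 without HNKO library 13 or WT library 15 and to 1 without any of WT 14 and 16 and HNKO 11, 12, 23, 30, 35, 36, and 38.

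The 5 ribosomal proteins named by other symbols had medians of −0.13, −0.21, 0.03, and 0.15 with TMM (0.04, −0.01, 0.22, and 0.36 with total counts alone), with 1 of 5 called lower at day 6 and 0 called on the other days by edgeR with TMM. With total counts alone 0 were called lower and 1 was called higher at days 12 and 21. Ptcd3, the gene called at day 6, codes for a pentatricopeptide protein of the small subunit. It ran from 47.8 to 54.3 CPM in WT and from 37.2 to 44.0 CPM in HNKO, without overlap. edgeR gave a log2 fold change of −0.29 ± 0.07 (adjusted p 0.00782), and the call ended without HNKO library 29 (0.0584), with total counts alone (0.543), without the filter (0.0511), and with the 2 groups alone (0.0511; range 0.00164 to 0.543). Of 26 assembly factors, 1 was called lower at day 6 with medians of −0.00, −0.14, −0.06, and −0.08. It was Gtpbp10, a GTPase of large subunit assembly (−0.33, adjusted p 0.0371), whose call ended without WT 8, 10, 27, or 28, HNKO 6, 7, or 29, or HNKO 38 of day 21, with total counts alone, without the filter, with all 40 libraries, and with the 2 groups alone (range 0.0177 to 0.49). DESeq2, RLE scaling, and leaving out any 1 of 9 libraries (5, 13, 15, 16, 22, 24, 31, 36, 41) gave 2 assembly factors, and at day 12 there was 1 without HNKO 36 or WT 14. Of 17 mitochondrial aminoacyl-tRNA synthetases, 1 was called lower at day 6, with medians of −0.02, −0.15, −0.04, and −0.04. It was Aars2, the alanine enzyme, from 18.5 to 22.2 CPM in WT and from 15.3 to 17.1 CPM in HNKO. No values overlapped between the groups, the log2 fold change was −0.35 ± 0.10 (adjusted p 0.0128), and the call ended without WT library 10 (0.0524) or HNKO library 29 (0.0605), with total counts alone (0.357), and with all 40 libraries (0.0799; range 0.00666 to 0.357). Total counts alone made the medians of the assembly factors and of the synthetases positive at each day, with 1 assembly factor called higher at day 21 and 1 synthetase at day 12.

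The ribosome holds 2 rRNAs of the mitochondrial genome and reads its mRNAs. Of the 2 rRNAs, edgeR called 0, 0, 1, and 2 lower at the 4 days, with medians of −0.16, −0.60, −0.79, and −2.07, negative with total counts alone too. The levels are what rRNA depletion left, so they are not those of the tissue. At day 21 mt-Rnr2, the large subunit rRNA, had a lowest, median, and highest of 15619.8, 41622.6, and 46739 CPM in WT and 7962, 9368, and 12259 CPM in HNKO. HNKO and WT did not overlap, and the log2 fold change was −1.93 ± 0.33 (adjusted p 0.00144), which did not pass without HNKO library 37 (0.0621; range 8.10e-08 to 0.0621). Then 1 of the 2 was called. At day 12 mt-Rnr2 was called with −0.84 (adjusted p 0.0342), and the call ended without WT 15, 16, 33, or 34 or HNKO 35 or 36. It also ended with total counts alone, without the filter, with all 40 libraries, with the 2 groups alone, and with the newer edgeR computation (range 0.011 to 0.124), while both rRNAs were called without WT library 39 of day 21. Of the 13 mitochondrial mRNAs, 8 passed the filter. The others, mt-Nd4l, mt-Co2, mt-Co3, mt-Atp6, and mt-Atp8, had too few assigned counts to pass. Whether this reflects their levels or how reads were assigned was not tested. Those that passed had medians of −0.09, −0.57, −0.67, and −0.79, with 0, 0, 2, and 0 called lower by edgeR. Total counts alone made the day 3 median positive (0.05). The 2 at day 12 were mt-Nd3 and mt-Nd6, subunits of complex I, and none was left without WT 15 or 16 or HNKO 35, and 1 without WT 14, 33, or 34, HNKO 12, 13, 32, or 36, HNKO 30 of day 6, or HNKO 40 of day 21. mt-Co1, a subunit of cytochrome oxidase, had −0.60 at day 6 (adjusted p 0.0882). Without HNKO library 6, 1 of the mRNAs was called at day 6.

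Regulators of mitochondrial transcription and biogenesis showed 1, 1, 2, and 1 of 12 called lower and 0, 1, 0, and 0 higher by edgeR with TMM. With total counts alone 0 were lower at each day and 1, 1, 0, and 0 higher, and at day 6 DESeq2, RLE scaling, and leaving out any 1 of 15 libraries gave 2 lower. Medians were −0.11, −0.24, −0.13, and −0.24 with TMM, and 0.06, −0.02, 0.06, and −0.04 with total counts alone. Gabpa, the DNA-binding subunit of an ETS-family factor, ran from 79.8 to 100.5 CPM in WT and from 68.0 to 74.3 CPM in HNKO at day 12. No values overlapped between the groups, and the log2 fold change was −0.39 ± 0.08 (adjusted p 0.00549), ended by total counts alone (0.0629; range 0.000587 to 0.0629). Tfam, which packs and transcribes mitochondrial DNA, ran from 43.8 to 51.4 CPM in WT and from 30.6 to 42.8 CPM in HNKO at day 12, also with no overlap. Its log2 fold change was −0.41 ± 0.11 (adjusted p 0.0163), ended by total counts alone (0.208) and by all 40 libraries (0.0716; range 0.00445 to 0.208). The calls of Tfam at day 3 and Gabpa at day 21 ended without any 1 of 17 and 15 libraries. At day 6 Ppargc1a, a coactivator of mitochondrial biogenesis, was lower (−0.61, adjusted p 0.0296) and Pprc1, a related coactivator, was higher (0.64, 0.0329), the first lost without WT library 8 or HNKO library 29 and with total counts alone, and the second without WT library 8, 27, or 28 or HNKO library 29 or 30.

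Nuclear genes of complex I and cytosolic ribosomal proteins give a scale for these sizes. Of 37 complex I genes, edgeR called 4, 19, 8, and 0 lower and 0 higher, with medians of −0.31, −0.38, −0.23, and −0.18, which total counts alone turned at day 21 (0.03). The day 6 count was 2 without HNKO library 29, 11 without HNKO library 30, 8 without WT library 8, and with total counts alone the counts were 0, 2, 1, and 0 at the 4 days. The day 12 count was 1 without WT library 16 and 2 to 5 without any of WT 15 and 34 and HNKO 11, 12, 13, 30, 35, 37, 38, and 40. That of day 3 was 0 without HNKO 2, 3, or 23 or WT 5, 24, or 25, 2 without WT 26, and 8 or 9 without WT 1 or HNKO 22 or 29. Of 80 cytosolic ribosomal protein genes tested (of 83), 0, 1, 0, and 1 were called lower and 0, 0, 1, and 0 higher. The calls were Rpl36 at day 6, lost without any 1 of 19 libraries (range 0.0334 to 0.347), Rpl3l higher at day 12, lost without HNKO 11, and Rps16 at day 21, lost without HNKO 37, while 2 were called lower without WT 39 at day 21 and 1 without WT 16 at day 12. With total counts alone 0, 0, 0, and 1 were lower and 0, 1, 4, and 0 higher. Their medians were −0.11, −0.05, −0.02, and 0.02 with TMM and 0.07, 0.16, 0.17, and 0.22 with total counts alone. The difference between lists was not tested.

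**Figure D4:**
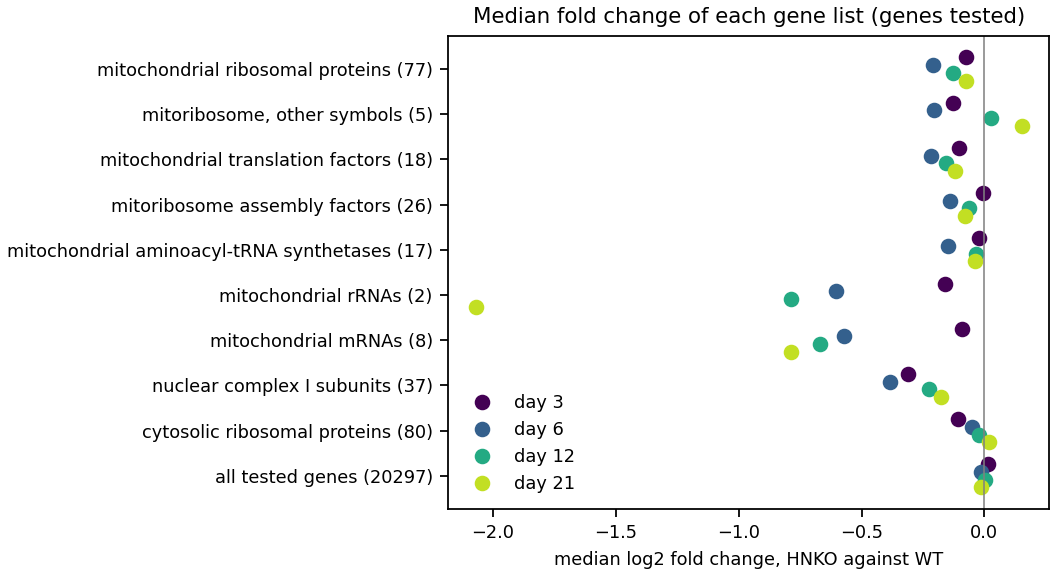
Median log2 fold change of HNKO against WT (horizontal axis) of each gene list, with the number of genes tested in brackets, at days 3, 6, 12, and 21 (color). At day 6 with TMM the mitochondrial ribosomal protein genes stand at −0.21, the complex I genes at −0.38, and the cytosolic ribosomal protein genes at −0.05, and total counts alone shift these to −0.00, −0.18, and 0.16.

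Markers of other liver cells differed between the same groups, and their part in the member results was not tested. Cholangiocyte markers were called higher in 5, 5, 4, and 3 of 7 genes at the 4 days, and their summed level had a mean of 54.5, 49.0, 54.4, and 53.6 CPM in WT and of 272, 351, 176, and 292 CPM in HNKO. Spp1, the most abundant of them, had a lowest, median, and highest of 28.7, 35.1, and 40.4 CPM in WT and 152, 264, and 728 CPM in HNKO at day 6. Its log2 fold change was 3.22 ± 0.40 (adjusted p 6.75e-06), called under every alternative. Cftr, an ion channel of bile duct cells, stayed at or below 0.476 CPM in the WT libraries and was called higher at each day. The count of the list at day 3 was 3 without HNKO library 2 or WT library 25. Leukocyte markers were called higher in 0, 4, 2, and 0 of 6 genes, with sums of 50.4, 40.7, 32.9, and 38.2 CPM in WT and 60.5, 94.3, 51.2, and 62.4 CPM in HNKO. Most of that sum is Ptprc, the pan-leukocyte phosphatase, whose day 6 log2 fold change was 1.04 ± 0.20 (adjusted p 0.000959, called under every alternative). The day 12 count was 0 or 1 without WT 14, 15, 16, 33, or 34 or HNKO 11, 12, or 13, and at day 21 1 was called without HNKO 38, HNKO 23 of day 3, or HNKO 29 of day 6. S100a9, a neutrophil gene, had 3.49 at day 6 (adjusted p 0.000134) and 1.59 at day 12 (0.0417). With total counts alone 5, 6, 5, and 5 cholangiocyte and 0, 4, 2, and 1 leukocyte genes were higher.

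Macrophage markers were called higher in 0, 1, 0, and 0 of 6 genes, with sums of 306, 304, 198, and 226 CPM in WT and 286, 394, 262, and 269 CPM in HNKO and Clec4f as the most abundant. Stellate cell markers were called higher in 2, 2, 2, and 1 of 7 genes and lower in 0, 0, 2, and 0, with sums of 364, 331, 377, and 372 CPM in WT and 372, 402, 349, and 449 CPM in HNKO and Reln as the most abundant. Endothelial markers were called lower in 0, 1, 1, and 0 of 6 genes, with sums of 542, 552, 528, and 513 CPM in WT and 529, 514, 501, and 495 CPM in HNKO and Stab2 as the most abundant. The macrophage call, Cd68 (0.88, adjusted p 0.024), was lost without WT 28 or HNKO 7 or 29, and at day 12 from 1 to 3 were called without WT 15, WT 19 or HNKO 37 or 38 of day 21, or HNKO 32, 35, or 36. Col1a1, a collagen gene, was higher at each day (1.84, 4.02, 2.03, and 3.07), with the call of day 6 kept under every alternative. The stellate count at day 3 was 0 without HNKO 2 or 23 or WT 5, 24, 25, or 26 and 1 without any 1 of 10 others. At day 12 the higher calls fell to 0 without HNKO 13 or WT 15 and to 1 without HNKO 11 or WT 16, 33, or 34, and the lower calls to 0 without WT 15 and to 1 without HNKO 12 or 35 or WT 34. At day 21 the count was 0 without HNKO 37 and 3 without HNKO 38. The endothelial calls were Kdr, lost at day 6 without HNKO 29 (0.0605) and at day 12 without any 1 of 32 libraries, and 1 endothelial gene was higher at day 6 without HNKO 31. With total counts alone no stellate or endothelial gene was lower, and 0, 3, 4, and 0 macrophage, 2, 3, 3, and 2 stellate, and 0, 2, 0, and 0 endothelial genes were higher, while DESeq2 called 1 macrophage gene higher at day 12.

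Hepatocyte markers were called lower in 0, 2, 0, and 0 of 8 genes, and their sums were 123368, 125732, 123637, and 114839 CPM in WT and 91362, 81571, 99558, and 89586 CPM in HNKO. Alb, the most abundant, had a log2 fold change of −0.67 at day 6 (adjusted p 0.0138). It was not called without HNKO library 29 (0.0669), without the filter (0.0577), with the 2 groups alone (0.18), or with the newer edgeR computation (0.216; range 0.000698 to 0.216). Of the 8 genes, 0 were called without HNKO library 29 and 1 without WT library 8 at day 6, and 1 at day 3 without HNKO library 4 or 22, while total counts alone gave the same counts as TMM and DESeq2 called 2 at day 3.

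The promoters of the members were searched for sites of factors known for nuclear genes of mitochondria. The RefSeq table of build GRCm38.p6 gave 250 bases before to 50 after the start for 68 of the 77 members. On either strand, CCGGAAG (ETS factors such as GABPA) was in 36.8% of them (25 genes) and in 9.93% of the 27025 genes of the table. AAGATGGC (YY1) was in 17.6% and 3.19%, and GCATGCGC (NRF1) in 11.8% and 3.05%. TATAAA was in 7.35% and 15.7%, CACGTG in 7.35% and 8.09%, and CCAAT in 38.2% and 41.1%. The median GC content was 58.5% for the members and 52.7% for all, and the median number of CG pairs 21 and 7. Members with CCGGAAG had a median log2 fold change of −0.18 at day 6 with 3 of 25 called, and those without had −0.21 with 3 of 43 called, a difference that was not tested. A match is a description of letters and not of binding.

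The 120 bases before the RefSeq start are shown for Mrps27, Mrps9, Mrps17, and Mrpl3, called at day 6 without overlap, and for Mrpl12, called at days 12 and 21, on the plus strand of GRCm38.p6, which is that of the genes. Capitals mark CCGGAAG or its reverse CTTCCGG, and CCAAT or its reverse ATTGG. They are Mrps27 (ENSMUSG00000041632.7, chr13:99344666-99344785), Mrps9 (ENSMUSG00000060679.14, chr1:42851113-42851232), Mrps17 (ENSMUSG00000034211.14, chr5:129715377-129715496), Mrpl3 (ENSMUSG00000032563.16, chr9:105053148-105053267), and Mrpl12 (ENSMUSG00000039640.7, chr11:120484517-120484636).
Mrps27: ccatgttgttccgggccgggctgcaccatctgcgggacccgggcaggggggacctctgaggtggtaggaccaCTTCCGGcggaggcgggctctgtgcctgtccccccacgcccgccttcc
Mrps9: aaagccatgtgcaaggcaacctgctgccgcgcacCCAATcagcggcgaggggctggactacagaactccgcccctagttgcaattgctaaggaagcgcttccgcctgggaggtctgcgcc
Mrps17: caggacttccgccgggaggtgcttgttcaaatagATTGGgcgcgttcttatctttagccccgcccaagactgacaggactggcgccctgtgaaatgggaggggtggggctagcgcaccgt
Mrpl3: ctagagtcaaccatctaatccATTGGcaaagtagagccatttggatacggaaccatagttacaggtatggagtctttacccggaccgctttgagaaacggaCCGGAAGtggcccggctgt
Mrpl12: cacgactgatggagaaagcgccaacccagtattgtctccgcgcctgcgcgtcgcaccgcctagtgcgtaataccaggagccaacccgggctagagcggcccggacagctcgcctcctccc
In these windows Mrps27 holds 1 ETS match, Mrps9 and Mrps17 a CCAAT match each, Mrpl3 both, and Mrpl12 none of the 6 motifs. The other called genes are Mrpl15 (ENSMUSG00000033845.13, chr1:4773206-4785739), Mrps35 (ENSMUSG00000040112.9, chr6:147042764-147073991), Mrps21 (ENSMUSG00000054312.6, chr3:95862634-95871519), and Mrpl1 (ENSMUSG00000029486.13, chr5:96209493-96266727).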

How the data were processed

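The data are raw counts per gene, deposited by the authors in 1 table for 40 libraries. Per the processing notes of the submitters, reads were aligned to GRCm38 with STAR 2.7.2b and counted with featureCounts 1.6.4. Libraries were matched to genotype and day by their labels, and 0 columns stayed unmatched. Of 55487 genes, edgeR's filter (minimum count 10, minimum total 15, minimum proportion 0.7) removed 35190 and kept 99.937% of counts. The model, on TMM-scaled libraries, has 8 groups of genotype by day and 38 libraries (edgeR 4.0.16 in R 4.3.3, quasi-likelihood with legacy dispersion, 30 residual and 4.48 prior degrees of freedom). Benjamini-Hochberg adjustment ran over the 20297 tested genes of each comparison, and SE values follow from the test statistic. Log2 CPM used a prior count of 2. Alternatives were 10 other settings, among them DESeq2 1.42.0, and leaving out each of 38 libraries. Tables and plots used Python 3.11.15, pandas 2.3.3, numpy 2.4.6, and matplotlib 3.10.9. Shared sequence was counted over 51-base stretches of annotated exons.

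The members and gene lists were chosen with earlier results of these data known. Genes were named by rule: Nampt, members called at 2 or more days, the 5 smallest p in each direction at each day, the extremes of level, spread, interaction, and change with day, those next to the count minimum, Mrps18a, Mrps30, Mrpl12, and Mrpl58, and from each list the genes called at 2 or more days or the smallest p at day 6. Other genes named, Mrpl3 among them, were added after their values were seen. The lists were other ribosomal protein symbols, translation factors, assembly factors, synthetases, mitochondrial rRNAs and mRNAs, regulators, complex I, cytosolic ribosomal proteins, and markers of 6 liver cell types.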

Additional observations from a re-analysis of the deposited data

Results flagged for a closer look

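In WT at day 12, library 16 was far above the other 4 for Mrpl12, at 98.3 CPM, and for Nampt, at 151 CPM. In HNKO at day 12, library 36 stood far above the other 5 for Mrps17, at 37.99 CPM. In HNKO at day 6, library 7 stood far above the other 4 for Mrps21, at 17.98 CPM. These 4 came from 77 groups of libraries searched for a library far from the rest, and chance alone marks about 1 in 20 groups.

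Libraries 17 and 18 of HNKO at day 21 are described as having failed quality control and were not used in the comparisons. As reasons the study names base composition, repeated reads, and alignment, and a place apart from the other samples when clustered. Their summed levels of the mitochondrial ribosomal protein genes were 1403.5 and 1299.4 CPM with TMM over 40 libraries, where the passed HNKO libraries of that day had a mean of 1475 and WT 1573 CPM. The share of all genes below the WT mean in these libraries was not computed, so nothing particular to the members is shown by these sums.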

How the results depend on the processing

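Scaling by total counts alone turned the sign of the family median at days 3, 12, and 21. The median log2 fold change of the members was then 0.0907, −0.00194, 0.0659, and 0.13 at days 3, 6, 12, and 21, the summed level differed by 4.99%, −1.71%, 3.32%, and 7.36%, and 0 members were called lower at days 6 and 12, 2 higher at day 21, and 1 lower in HNKO from day 3 to 21. Over all tested genes, higher calls rose at each day with this scaling. Total counts alone also turned the sign of Mrpl12 at day 3 (0.00566), Mrps27 at days 3 (0.16) and 12 (0.14), and Mrps30 at days 3 (0.0837) and 6 (0.00577).

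For these and the other changes the cause was not tested. Members called lower at day 6 were 4 without a filter on low counts, 4 with all 40 libraries, and 1 with only the 2 groups of the day, against 8. At day 12 they were 4 with DESeq2, 4 with the label series as a covariate, and 1 with the 2 groups, against 2. At day 21 they were 2 with DESeq2, 2 with the label series, and 4 with all 40 libraries, against 1. With all 40 libraries Mrps11 and Mrps28 at day 21 turned to −0.21 and −0.0356, and with at least 10 counts in every library Mrps27 at day 3 turned to 0.011.

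Leaving out 1 library at a time gave 0 to 1 members called lower at day 3, 1 to 10 at day 6, 0 to 3 at day 12, and 0 to 3 at day 21, and 2 to 6 in WT and 0 to 8 in HNKO for day 21 against day 3. The median at day 21 ran from −0.10 to 0.00527. Small values changed sign: Mrps11 at day 6 (−0.00646 to 0.0674), Mrps16 at day 12 (−0.022 to 0.13), Mrps18b (−0.00128 to 0.24) and Mrps22 (−0.0183 to 0.10) at day 3, and Mrps27 at days 3 (−0.0648 to 0.075) and 12 (−0.10 to 0.0355).

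Over the 47 pairs of a named member and a day, the 10 other settings left direction and side of the threshold as they were in 423 cases, weakened 28, strengthened 11, and reversed 8. Leaving out libraries did so in 1726, 44, 7, and 9. RLE scaling, robust estimation, and the newer edgeR computation changed no call or direction among these pairs.

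No paired analysis was possible because the groups share no library numbers. Leaving out libraries for changes with day, the scalings of the day effects and of the gene lists, and all alternatives for the calls of the listed genes and Nampt were chosen after seeing the data. Groups of 3 to 6 mice and depths of 16151037 to 64181492 counts limit what can be called. The median SE of a member's log2 fold change was 0.11, 0.12, 0.11, and 0.13 at the 4 days. Mrps36 had the fewest counts of the members, and the limits were not compared between genes.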
